A study of Mus musculus with 31 samples.

Results

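Regulatory T cells (Tregs) of the spleen were compared between mice that carried a mammary tumor elsewhere in the body and tumor-free mice. The comparison rests on 6 RNA-seq libraries, 3 from tumor-bearing and 3 from healthy mice, chosen by tissue and genotype from a series of 31. All mice were on the FVB/N background and carried floxed alleles of Cdh1 (E-cadherin) and Trp53 (p53), written Cdh1F/F;Trp53F/F. The tumor-bearing mice also carried K14cre and are called KEP; the keratin 14 promoter drives the recombinase in epithelium, and each mouse had a spontaneous mammary tumor of 225 mm2. The healthy mice, called WT, were labelled wt;Cdh1F/F;Trp53F/F and lacked the Cre transgene, so they shared the floxed alleles. A single mouse gave each KEP library, while cells of 3 mice were pooled for each WT library, so the WT spread is a spread between pools. Ages were not given in the sources used here. Cells were sorted as live CD45+ CD3+ CD4+ CD8- CD25+ cells with no gate on FOXP3, and 70000 cells went into each of the 6 libraries.

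Tregs are CD4+ T cells that restrain other immune cells and depend on the transcription factor FOXP3. In lymphoid organs some circulate in a resting state, while others carry an effector program, with costimulatory receptors, granzyme B and the receptors and integrins that guide cells into tissues. The spleen filters blood and is not the site of the tumor here, so this comparison asks how Tregs differ at a distance from it.

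Depth was even across the 6 libraries, with 10211727 to 12864755 counts and 15482 to 15930 genes detected per library. No library repeated another: the chi-square of replicate pairs, divided by its degrees of freedom, was 8.01 to 15. The titles carry dates that were never shared between genotypes, so the date and the genotype cannot be told apart. The p-values rest on the spread within groups over all 24 libraries in the main fit, those of lymph node, lung and blood included. That fit treated the libraries as independent, although libraries that share a title date were correlated (consensus correlation 0.23, limma). In RNA from a cell population fewer cells of a kind and less RNA per cell cannot be told apart.

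The sorted cells expressed the genes that define the gate and the lineage. Cd3e and Cd4 were level between the groups, with log2 fold changes of 0.05 and 0.08, and Cd8a stayed at or below 0.75 CPM (counts scaled to library size) in every library. Foxp3 reached 1290, 1128 and 1463 CPM in the KEP libraries and 873, 904 and 723 CPM in the WT libraries. The gene was therefore abundant in both groups, and the KEP libraries lay above the WT libraries. Of the alleles that K14cre recombines, Trp53 read 181, 169 and 174.5 CPM in KEP against 233, 231 and 218 CPM in WT. Its log2 fold change was -0.38 ± 0.08 (SE, adjusted p = 0.00414), a fall of 1.3-fold, while Cdh1 stayed at or below 1.28 CPM in all 6 libraries. The deletion acts in keratin 14 epithelium, so neither level checks the genotype of these T cells, and what moves with the Trp53 difference was not tested.

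Itgae, Gzmb, Klrg1, Icos and Tigit of the Treg activation and effector list rose in KEP spleen Tregs. The list was chosen with earlier results of these data known. Genes that fell had smaller changes. Of 12825 genes tested, 546 were called at an adjusted p under 0.05 (4.26%), 423 higher in KEP (3.3%) and 123 lower (0.959%). The called higher genes had a median log2 fold change of 0.78, and 159 of them changed at least 2-fold. The called lower genes had a median of -0.46, and 14 of them changed at least 2-fold. The median over all tested genes was 0.00 (-0.0013). In 419 of the 423 higher genes every KEP library lay above every WT library, and in 117 of the 123 lower genes every KEP library lay below. Over all tested genes the groups separated in this way in 13.7% with KEP above and in 11.2% with KEP below.

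**Figure D1:**
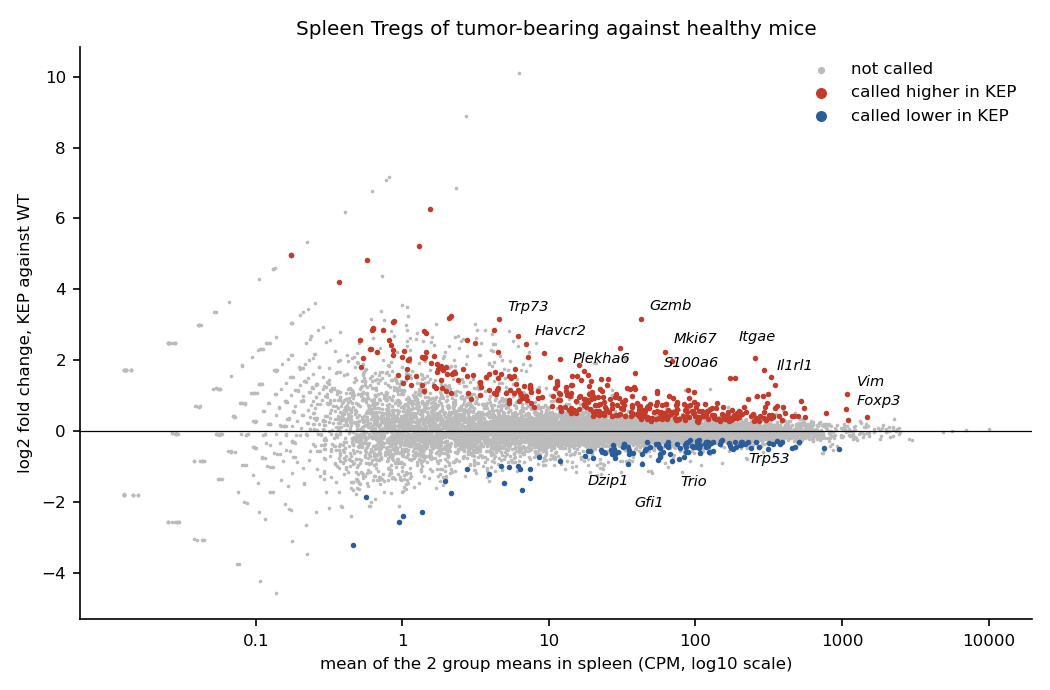
Each point is a gene; the horizontal axis is its mean level in the 2 spleen groups (CPM, log scale) and the vertical axis its log2 fold change, KEP against WT (genes with no count in spleen are not drawn). Red points (423) were called higher in KEP and blue points (123) lower; the red cloud reaches larger changes than the blue one.

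Individual libraries bore on these counts. KEP replicate 3 was the highest of the KEP libraries in 242 of the 423 higher genes, and KEP replicate 2 was the lowest in 237. Fewer genes were called without KEP replicate 3 (243), WT replicate 2 (267), WT replicate 1 (273) or KEP replicate 1 (306). A fit that also held the tumor and mammary gland libraries called 68 genes, 66 higher and 2 lower, all 68 among the 546. Itgae (adjusted p = 0.139) and Il1rl1 (adjusted p = 0.2) were not called there, with log2 fold changes of 2.08 and 1.72. A test that required a change above 1.5-fold called 53 genes, all higher.

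The 15 higher and 15 lower genes named here were chosen among called genes with no overlap between the groups. Their separation was thus set by that choice and is no further result. The smallest p-value belonged to Itgae, which encodes CD103, the integrin chain that pairs with beta 7 and binds E-cadherin. It lies on chromosome 11 (GRCm38, 73090583 to 73147446). Itgae read 366, 438 and 434 CPM in the KEP libraries and 94.5, 105.5 and 93.3 CPM in the WT libraries. The log2 fold change was 2.08 ± 0.16 (adjusted p = 6.07e-08), a 4.22-fold rise. Havcr2 (chromosome 11, 46454935 to 46481255) encodes the inhibitory receptor TIM-3. Its levels were 11.3, 11.8 and 12.6 CPM in KEP and 2.35, 1.82 and 2.26 CPM in WT, a 5.52-fold rise (log2 fold change 2.47 ± 0.22, adjusted p = 1.28e-07). Both groups were tight. Gzmb (chromosome 14, 56258856 to 56262260), the gene of the cytotoxic protease granzyme B, read 56.9, 103 and 68.6 CPM in KEP and 8.91, 9.2 and 7.32 CPM in WT. That was the steepest rise among the 15 higher genes named here, 9.02-fold (log2 fold change 3.17 ± 0.31, adjusted p = 7.02e-06), with KEP replicate 2 the highest library.

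The calcium-binding protein gene S100a6 (chromosome 3, 90612894 to 90614414) read 260, 250 and 314 CPM in KEP and 92, 98.2 and 99.1 CPM in WT, a log2 fold change of 1.51 ± 0.13 (adjusted p = 1.23e-07). Vim (chromosome 2, 13573927 to 13582826) encodes the intermediate filament protein vimentin. It doubled, by 2.07-fold, from 662, 756 and 685 CPM in WT to 1438, 1447 and 1476 CPM in KEP (log2 fold change 1.05 ± 0.10, adjusted p = 3.76e-07). Its KEP libraries differed among themselves by less than the WT libraries did. Il1rl1 (chromosome 1, 40429570 to 40465415) encodes ST2, the receptor for interleukin 33. Its WT libraries sat at 135, 139.5 and 135 CPM, and its KEP libraries at 498, 329.6 and 519 CPM, a 3.29-fold rise (log2 fold change 1.72 ± 0.18, adjusted p = 8.68e-06). KEP replicate 2 was the lowest KEP library here.

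Trp73 (chromosome 4, 154056253 to 154140208), a p53 family transcription factor, read 7.77, 7.42 and 9.42 CPM in KEP and 1.31, 0.868 and 0.604 CPM in WT. It rose 8.91-fold (log2 fold change 3.16 ± 0.29, adjusted p = 1.53e-07), from levels near 1 CPM. Lgmn (chromosome 12, 102394084 to 102439813) encodes the lysosomal protease legumain, and read 60.1, 59.3 and 57.3 CPM in KEP against 16.7, 19.4 and 20.2 CPM in WT (log2 fold change 1.65 ± 0.17, adjusted p = 2.09e-06). Plekha6 (chromosome 1, 133181321 to 133303435), a pleckstrin homology domain protein, read 16.2, 18.5 and 22.8 CPM in KEP and 4.88, 4.77 and 4.3 CPM in WT (log2 fold change 2.05 ± 0.17, adjusted p = 6.07e-08). In each of these 3 genes the groups were several-fold apart. The other 6 of the 15 were Osbpl3, Plxdc1, Cr1l, Arl5a, Fam129b and Atrnl1. Their log2 fold changes ran from 0.78 for Cr1l, which encodes the complement regulator Crry, to 1.86 for Plxdc1, which encodes a plexin domain protein.

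The sequences before the genes with the smallest p are shown as examples of the promoters of genes that changed. They are the 250 bases before a RefSeq start (GRCm38.p6, the C57BL/6J reference and not FVB/N) of the first 4 higher and first 2 lower genes by p with an entry, 5′ to 3′ on the gene's strand. For Trp73 and Dzip1, with 2 and 3 starts in the table, the start found in most annotated transcripts was taken. The windows of Plekha6, Trp73 and Dzip1 lie inside the annotated gene spans, so longer transcripts of these genes begin elsewhere. Plekha6 is chr1:133245847-133246096 (plus strand), S100a6 is chr3:90612644-90612893 (plus), Havcr2 is chr11:46454681-46454930 (plus), Trp73 is chr4:154097174-154097423 (minus), Trio is chr15:28025849-28026098 (minus) and Dzip1 is chr14:118923168-118923417 (minus).
Plekha6: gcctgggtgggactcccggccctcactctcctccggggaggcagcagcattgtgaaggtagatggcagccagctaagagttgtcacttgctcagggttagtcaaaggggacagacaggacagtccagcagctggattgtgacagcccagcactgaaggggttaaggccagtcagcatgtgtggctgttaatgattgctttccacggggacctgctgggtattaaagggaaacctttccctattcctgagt
S100a6: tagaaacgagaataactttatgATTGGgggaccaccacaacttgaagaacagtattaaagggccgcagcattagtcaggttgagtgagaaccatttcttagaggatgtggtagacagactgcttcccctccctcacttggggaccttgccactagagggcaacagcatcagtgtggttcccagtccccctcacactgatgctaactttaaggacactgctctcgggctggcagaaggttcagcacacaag
Havcr2: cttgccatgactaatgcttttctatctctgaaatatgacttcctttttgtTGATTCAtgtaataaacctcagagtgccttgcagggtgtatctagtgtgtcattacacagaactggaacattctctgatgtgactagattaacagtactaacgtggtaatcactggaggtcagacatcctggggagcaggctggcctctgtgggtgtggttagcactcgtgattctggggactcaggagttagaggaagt
Trp73: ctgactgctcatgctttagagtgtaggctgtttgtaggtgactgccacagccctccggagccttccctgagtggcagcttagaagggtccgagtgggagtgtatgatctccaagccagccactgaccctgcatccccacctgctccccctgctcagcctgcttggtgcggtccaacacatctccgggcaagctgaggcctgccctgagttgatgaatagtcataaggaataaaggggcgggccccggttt
Trio: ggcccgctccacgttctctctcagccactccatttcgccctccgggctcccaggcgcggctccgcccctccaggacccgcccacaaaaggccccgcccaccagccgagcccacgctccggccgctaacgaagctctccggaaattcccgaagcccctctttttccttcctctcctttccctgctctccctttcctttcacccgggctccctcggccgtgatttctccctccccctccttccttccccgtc
Dzip1: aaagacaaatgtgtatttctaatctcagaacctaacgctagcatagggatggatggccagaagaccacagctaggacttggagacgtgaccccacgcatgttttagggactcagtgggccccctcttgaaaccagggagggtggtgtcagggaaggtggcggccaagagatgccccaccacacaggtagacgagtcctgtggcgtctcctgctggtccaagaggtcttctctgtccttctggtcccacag
Capitals mark matches on either strand to any of 8 motifs that were searched. The motifs were the core of the interferon-stimulated response element, the STAT site TTCNNNGAA, the AP-1 site TGANTCA, the NF-kB form GGGNNTTCC, the E-box CACGTG, the cell cycle element TTTGAA, the CCAAT box and TATAAA. Havcr2 holds 1 AP-1 match and S100a6 holds 1 CCAAT match, and the other 4 windows hold none. Among 32851 RefSeq windows of the same length, 6.75% hold an AP-1 match and 33.8% a CCAAT match. A match is a description of these letters and says nothing about binding.

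The 15 lower genes with the smallest p fell by at most 1.91-fold. Trio (chromosome 15, 27730652 to 28025848), a guanine nucleotide exchange factor, read 54.1, 49.7 and 45.5 CPM in KEP and 91.1, 87.1 and 89.4 CPM in WT. Its log2 fold change was -0.84 ± 0.13 (adjusted p = 0.000241), and the WT libraries were tight. Dzip1 (chromosome 14, 118875520 to 118925314), a zinc finger protein known from ciliary signalling, read 36.5, 48.4 and 36.5 CPM in KEP and 69.2, 70.8 and 72.9 CPM in WT (log2 fold change -0.81 ± 0.13, adjusted p = 0.00037). Gfi1 (chromosome 5, 107716657 to 107726036) encodes a transcriptional repressor of blood cell development. It read 39, 40.9 and 49.4 CPM in KEP against 74.6, 68.5 and 69.2 CPM in WT (log2 fold change -0.71 ± 0.14, adjusted p = 0.00245). KEP replicate 3 was its highest KEP library.

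Dtx4, a Deltex ubiquitin ligase of the Notch pathway, read 25.3, 26.3 and 37 CPM in KEP and 61.1, 55 and 52.9 CPM in WT (log2 fold change -0.93 ± 0.20, adjusted p = 0.0089). Lmo4, a LIM-only transcription cofactor, read 21.8, 32.6 and 17.4 CPM in KEP and 36.8, 49.8 and 50.03 CPM in WT (log2 fold change -0.93 ± 0.21, adjusted p = 0.0147). These were the 2 steepest falls among the 15 lower genes named here. The other 10 were Parp8, Smyd2, Ttc28, Tgif2, Whrn, Focad, Zfp827, Xylt2, Cdyl2 and Kcnq5, with log2 fold changes from -0.84 (Whrn) to -0.59 (Tgif2). Of the exon length of Tgif2, 56.7% overlaps another gene, so its counts are uncertain. Of the 15 lower genes, 8 were still called without KEP replicate 3, 11 without KEP replicate 1 and 11 without WT replicate 1. Without WT replicate 2, WT replicate 3 or KEP replicate 2 the counts were 13, 14 and 15. All 15 of the higher genes were still called without any 1 of the 6 libraries. With the 6 spleen libraries alone 11 lower and 15 higher genes were called, and with all 31 libraries 1 and 13. Lmo4 lost its call in these 2 fits and without KEP replicate 1, KEP replicate 3 or WT replicate 2.

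**Figure D2:**
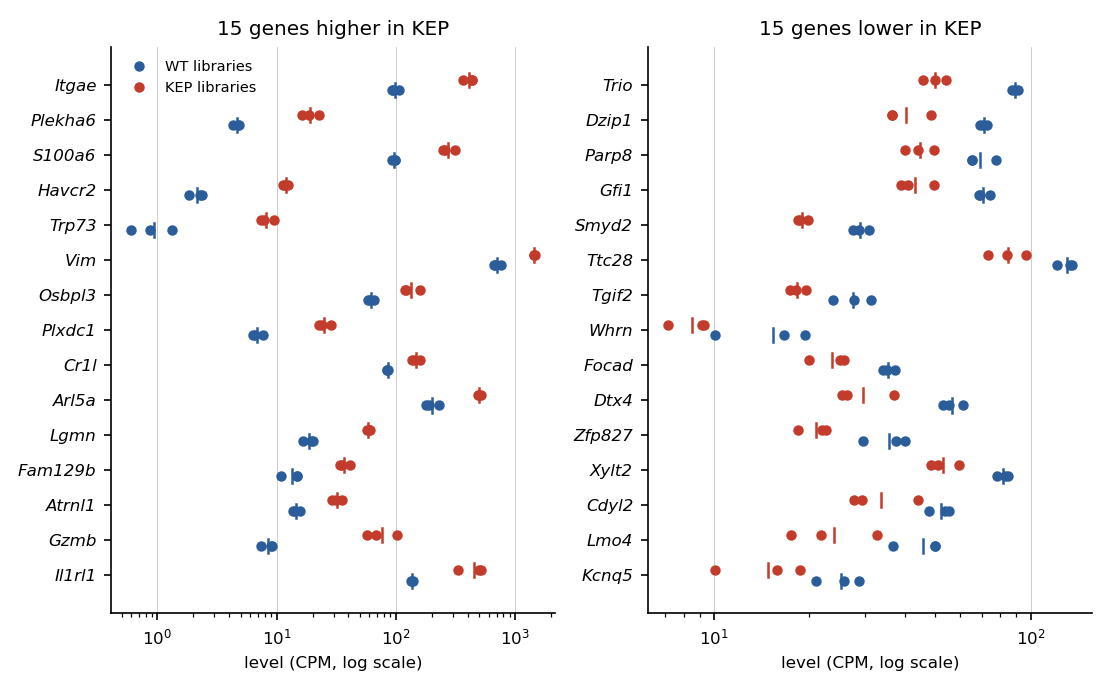
Levels (CPM, log axis) of the 15 named higher genes (left) and 15 named lower genes (right) in each spleen library, with red points for KEP, blue points for WT and a vertical bar at each group mean. The genes were chosen with no overlap between the groups, and the fold changes reach 9.02 on the left (Gzmb) and 1.91 on the right (Dtx4).

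Of 18 genes of Treg activation and effector state, 11 were called higher and none lower, beside 3.3% and 0.959% over all genes. The list was chosen with earlier results of these data known, so this count is no independent test. The list's median log2 fold change was 0.77. Every KEP library lay above every WT library for 15 of its genes and below for 1, beside 13.7% and 11.2% over all genes. Besides Itgae, S100a6 and Gzmb, the called genes were Cd80, Icos, Tigit, Klrg1, Batf, Irf4, Maf and S100a4. Klrg1, a receptor of terminally differentiated effector Tregs, read 281, 141 and 336 CPM in KEP and 84.1, 94.3 and 89.9 CPM in WT (log2 fold change 1.497 ± 0.28, adjusted p = 0.00414). Icos, a costimulatory receptor of effector Tregs, read 375, 397 and 394 CPM in KEP and 208, 220.1 and 240.0 CPM in WT (log2 fold change 0.80 ± 0.12, adjusted p = 0.000121). Tigit, a coinhibitory receptor, read 127, 97.5 and 134 CPM in KEP and 62.2, 62 and 63.3 CPM in WT (log2 fold change 0.93 ± 0.16, adjusted p = 0.00114). In Klrg1 and Tigit, KEP replicate 2 was the lowest KEP library and still above WT. The transcription factor genes Batf, Irf4 and Maf, which act in effector Treg differentiation, had log2 fold changes of 0.74, 0.58 and 0.48. Cd80, a ligand of CD28 and CTLA-4, had 1.56 ± 0.20 (adjusted p = 2.68e-05). Members that did not pass were Prdm1 (0.41, adjusted p = 0.0549), Tnfrsf4 (0.95, 0.0695), Tnfrsf9, Cd44, Cd38, Id2 (-0.48) and Cd83 (-0.44). With each library left out in turn, 8 to 11 members were called, and 2 with the tumor and mammary gland libraries in the fit.

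Of 13 genes of Treg identity, 4 were called higher and none lower, beside 3.3% and 0.959% over all genes. The median log2 fold change of the 13 was 0.31. Foxp3 had 0.63 ± 0.11 (adjusted p = 0.000581). Its value carries a doubt, since 31.5% of its exon length overlaps Ccdc22, Ppp1r3f and Ppp1r3fos and the strand setting of the counting was not given in the sources used here. Ikzf2, the gene of Helios, read 501, 446 and 504.5 CPM in KEP and 357.5, 318 and 332 CPM in WT (log2 fold change 0.53 ± 0.14, adjusted p = 0.0254). Tnfrsf18, the gene of GITR, had 0.69 ± 0.17 (adjusted p = 0.0266), and Capg, a gelsolin family actin-capping protein, had 0.67 ± 0.09 (adjusted p = 3.08e-05). Tnfrsf18 shares 27.2% of its exon length with another gene. Il2ra, which encodes the CD25 chain of the gate, read 591, 524 and 707 CPM in KEP and 460, 517 and 460.5 CPM in WT. Its log2 fold change of 0.34 ± 0.14 did not pass (adjusted p = 0.187), nor did that of Ctla4 (0.44 ± 0.24, adjusted p = 0.366). Ikzf2 and Tnfrsf18 lost their calls when any 1 of 5 libraries was left out, so that 2 of the 13 genes were called in those fits.

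The median of 17 suppressive mediators and inhibitory receptors was 0.20. Of these, 4 were called higher and none lower, beside 3.3% and 0.959% over all genes. Apart from Havcr2, they were Lgals1, Cd200r1 and Fgl2. Lgals1, the gene of galectin-1, read 394, 354 and 406 CPM in KEP and 170.1, 196 and 215 CPM in WT (log2 fold change 0.99 ± 0.13, adjusted p = 5.26e-05). Cd200r1, the receptor for CD200, had 1.23 ± 0.22 (adjusted p = 0.00243), and Fgl2, a secreted suppressive mediator, had 0.68 ± 0.19 (adjusted p = 0.0459). Fgl2 lost its call without 5 of the 6 libraries in turn (adjusted p up to 0.242), all but KEP replicate 2. The cytokine genes of suppression did not pass, with log2 fold changes of -0.16 for Il10, -0.05 for Tgfb1 and 0.52 for Ebi3. Neither did those of the receptors Pdcd1 (0.30) and Lag3 (0.55) or of the ectoenzyme Nt5e (-0.04). Thus 13 of the 17 were not called.

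Homing receptors split by member. Of 24 genes, 6 were called higher (Ccr1, Ccr2, Ccr3, Ccr4, Ccr10 and S1pr1) and none lower, beside 3.3% and 0.959% over all genes. The median of the 24 was 0.20. Ccr2, a receptor for inflammatory monocyte chemoattractants, read 302, 381 and 361 CPM in KEP and 142, 149 and 234 CPM in WT (log2 fold change 0.99 ± 0.18, adjusted p = 0.0022). Ccr4, a receptor linked to skin homing, read 273, 257 and 359.8 CPM in KEP and 151, 153 and 169 CPM in WT (log2 fold change 0.91 ± 0.13, adjusted p = 0.000149). In both the groups stood apart, with WT replicate 3 the highest WT library. Ccr3 had 1.59 ± 0.23, Ccr10 had 1.56 ± 0.33, and S1pr1, the receptor for exit from lymphoid organs along sphingosine 1-phosphate, had 0.42 ± 0.12 (adjusted p = 0.0415). Ccr1 rose from 0.563, 0.434 and 0.226 CPM to 3.38, 3.48 and 4.79 CPM, a change between low levels. Cxcr3 and Ccr9, receptors of type 1 inflamed tissue and of gut, had log2 fold changes of -0.75 and -1.04 that did not pass (adjusted p = 0.249 and 0.0997). The lymph node entry receptor gene Ccr7 (-0.23) did not pass either. Every KEP library read above every WT library for 10 of the 24 genes, and below for 5, Ccr9 and Cxcr3 among them, beside 13.7% and 11.2% over all genes.

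Tissue Treg genes and cytokine pathways had few called members. Over all genes 3.3% were called higher and 0.959% lower. Of 15 tissue Treg genes, 2 were called, both higher, Il1rl1 and Nfil3 (0.98 ± 0.17, adjusted p = 0.000649), a transcription factor. Gata3 (0.24) and Rora (0.16) did not pass. Of 15 genes of the interleukin 2 and STAT5 response, the feedback inhibitor gene Socs3 and the kinase gene Pim1 were called higher. Socs3 read 472, 438 and 351 CPM in KEP and 237, 203 and 174.5 CPM in WT (log2 fold change 1.04 ± 0.14, adjusted p = 7.98e-05). Pim1 read 692.5, 605 and 716 CPM in KEP and 389.5, 405 and 327.5 CPM in WT (log2 fold change 0.84 ± 0.10, adjusted p = 9.51e-06). Cish (0.48) and Myc (-0.16) of the same list did not pass, and 14.5% of the exon length of Pim1 overlaps another gene. In the interleukin 6 and STAT3 list 1 of 16 was called (Bcl3, 0.82), and in the interferon gamma list 2 of 19 (Gbp2, 0.45, and Gbp7, 0.42). Bcl3 and Gbp7 lost their calls without 4 of the libraries in turn and Gbp2 without 2. None of 27 type I interferon genes, 15 NF-kB genes, 16 early T cell receptor response genes or 12 conventional effector T cell genes was called. Every KEP library lay below every WT library for 6 of the 15 NF-kB genes and above for 1. Over all genes these shares were 11.2% and 13.7%. For the conventional effector genes the counts were 3 and 0, for the early receptor genes 3 and 1, and for the type I interferon genes 1 and 5.

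Metabolic and stress lists had at most 2 called members each. The called shares over all genes were 3.3% higher and 0.959% lower. Hif1a was called higher (0.51 ± 0.12, adjusted p = 0.0171) among 25 genes of glycolysis and hypoxia, whose median was -0.01. The median of 19 cholesterol and fatty acid genes was -0.14. In 9 of them every KEP library read below every WT library, and in 1 above, beside 11.2% and 13.7% over all genes. The chaperone gene Dnajc3 fell (-0.40) among 18 endoplasmic reticulum genes. Pmaip1, which encodes the p53-induced protein NOXA, was the 1 called member of 15 p53 targets (0.50, adjusted p = 0.0454). All 16 ribosome biogenesis genes had log2 fold changes below 0, with a median of -0.14, and none was called; the smallest adjusted p was that of Polr1a (0.081). Of 23 genes induced by tissue dissociation, Zfp36 was called higher (0.38) and Btg2 lower (-0.29). The 14 resting T cell genes had a median of -0.19, with 5 above 0. Igfbp4 was called higher (2.35, adjusted p = 0.0416), against the direction of the median, and lost its call without 4 of the libraries in turn (adjusted p up to 0.17). Tnfsf10 (0.44) and Tnfrsf1b (0.41) were called higher among 15 TNF receptor costimulation genes, and none of 19 oxidative phosphorylation genes was called. With each library left out in turn, Hif1a lost its call 3 times, Tnfsf10, Dnajc3 and Btg2 4 times, and Tnfrsf1b, Zfp36 and Pmaip1 5 times. The highest adjusted p in these fits was 0.29 (Tnfrsf1b).

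**Figure D3:**
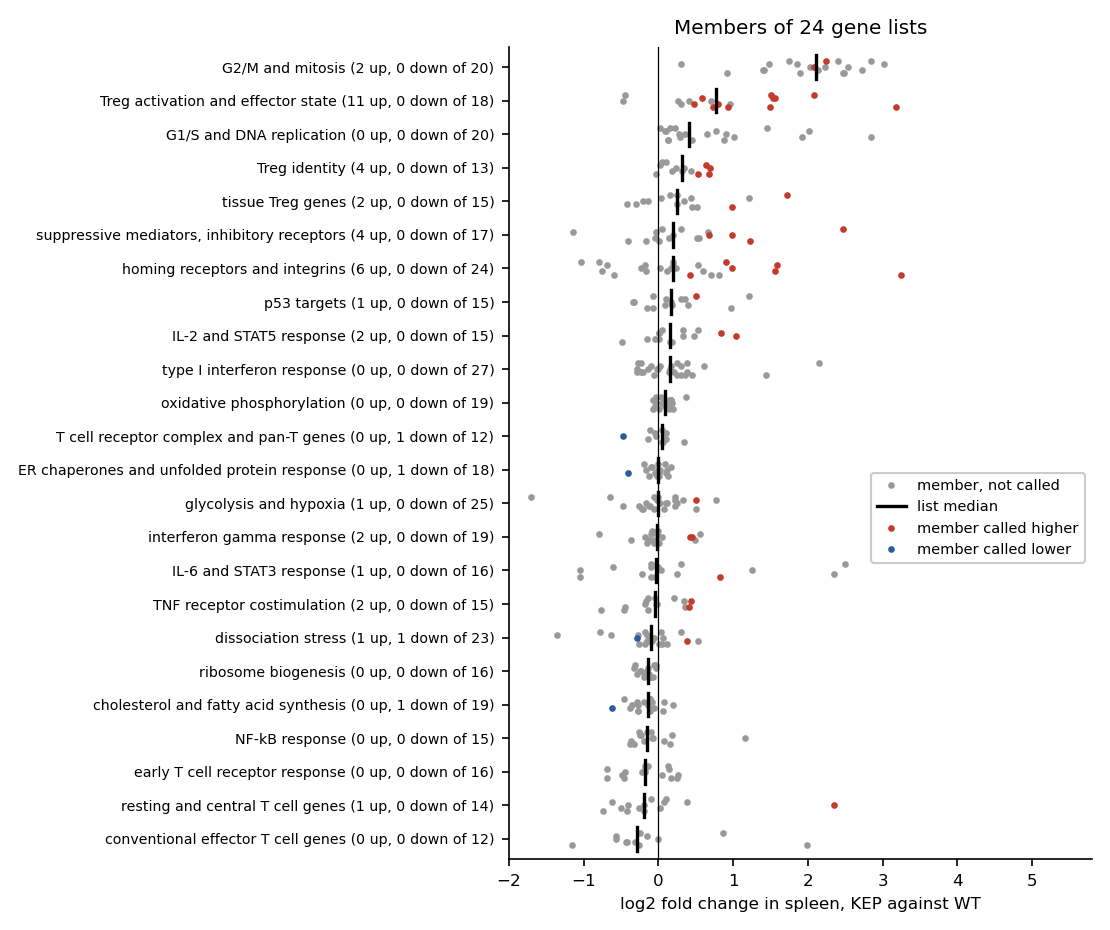
Log2 fold changes in spleen, KEP against WT (horizontal axis), of the tested members of 24 gene lists, 1 list per row, with red and blue for members called higher and lower, grey for the rest and a black bar at the list median. The G2/M list (median 2.11) and the Treg activation list (median 0.77) lie furthest to the right, and the activation list holds most red points (11).

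Mitotic genes read higher in KEP spleen Tregs and varied widely between the KEP mice. All 20 genes of G2/M and mitosis had log2 fold changes above 0, with a median of 2.11. In 17 of them every KEP library lay above every WT library, beside 13.7% over all genes. Only 2 of the 20 passed the test, beside 3.3% called higher over all genes. They were Mki67, the marker of cycling cells (2.24 ± 0.50, adjusted p = 0.0161), and the cyclin gene Ccnb2 (2.09 ± 0.48, adjusted p = 0.0161). Mki67 read 168, 73.5 and 66.3 CPM in KEP and 18.4, 20 and 26.4 CPM in WT. KEP replicate 1 stood highest, and the 20 genes summed to 537 CPM there, 223 and 181 CPM in the other KEP libraries and 66.3, 77.9 and 98.2 CPM in WT. Without KEP replicate 1 no member was called, nor without WT replicate 1 or WT replicate 2, and the median was 1.37 without KEP replicate 1. DESeq2 called 10 of the 20. The 20 genes of G1/S and DNA replication also all lay above 0, with a median of 0.41, and none was called; Ccne2, with 17.4% of its exon length shared with Ints8, had the smallest p (2.85 ± 0.82, adjusted p = 0.0519).

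Of 10 lists of markers of other cells, 7 had no called member, and the other 3 had 1 each, called higher, beside 3.3% over all genes. Neutrophil genes summed to 10.6, 10.9 and 117 CPM in KEP and 12.8, 9.29 and 15.5 CPM in WT. KEP replicate 3 thus stood apart, with S100a9 at 35.5 CPM there and at 2.11 and 0.151 CPM in the other KEP libraries, and at 0 CPM in all WT libraries. Of the 8 neutrophil genes tested, Lcn2 was called (adjusted p = 0.0423), and it was not called without KEP replicate 3 (adjusted p = 0.634). Macrophage and monocyte genes summed to 35.1, 21.6 and 44.4 CPM in KEP and 17.4, 12.9 and 11.9 CPM in WT, groups that did not overlap. Among the 12 tested, 1 was called, the integrin gene Itgam (10.3, 6.36 and 15.4 CPM in KEP, 0.844, 1.04 and 2.94 CPM in WT), and the defining gene Adgre1 stayed at or below 0.591 CPM. All 12 had log2 fold changes above 0. The part of these cells in the called genes was not tested. Without KEP replicate 3, 241 of the 546 genes were still called. The number kept was 259 without WT replicate 2, 267 without WT replicate 1 and 300 without KEP replicate 1. It was 392 without WT replicate 3 and 415 without KEP replicate 2. These numbers do not measure the part of these cells.

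Epcam, an epithelial adhesion molecule, was called higher (1.26 ± 0.26, adjusted p = 0.00498), at 22.1, 13.3 and 19.9 CPM in KEP and 7.04, 8.42 and 7.62 CPM in WT. The keratin genes Krt5, Krt8 and Krt14 were too low to be tested and Krt19 stayed at or below 0.174 CPM. Of the 6 epithelial and milk genes tested, 3 had log2 fold changes above 0, and only Epcam was called. Every KEP library lay above every WT library for 2 of the 6 and below for 1, beside 13.7% and 11.2% over all genes. The source of the Epcam rise was not tested. Red cell genes ranged from 145 to 648 CPM in KEP and from 75.2 to 312 CPM in WT, and none of 15 was called. All 15 had log2 fold changes above 0, with a median of 1.11. In 5 of them every KEP library lay above every WT library, beside 13.7% over all genes. Red cell lysis is stated for lungs and blood in the labels' protocols and not for spleen. Natural killer and CD8 genes ranged from 133 to 270.0 CPM in KEP and from 257 to 451 CPM in WT, with none of 7 called. Their median log2 fold change was -0.835, and 1 of the 7 lay above 0. B cell genes (710 to 964 CPM in KEP, 653 to 829 CPM in WT) overlapped between the groups, with none of 11 called. Of these 11 genes, 10 had log2 fold changes above 0, with a median of 0.286. No member of the plasma cell, dendritic cell, mast cell or stromal lists was called.

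**Figure D4:**
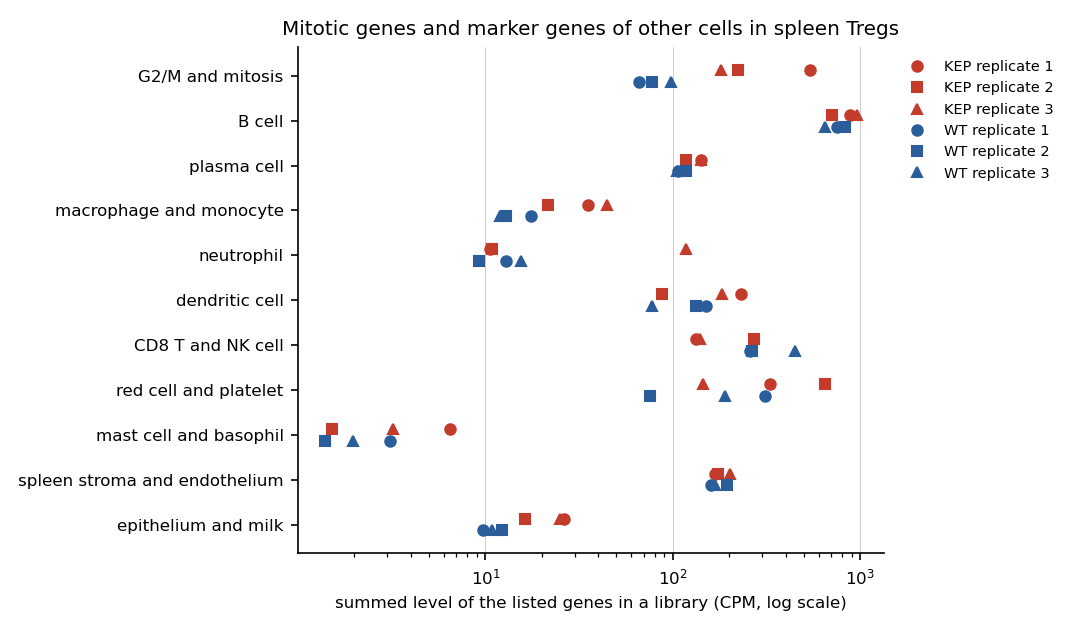
Summed level per library (CPM, log axis) of 20 mitotic genes and of marker genes of other cells, with red for KEP, blue for WT and a symbol for each replicate number. KEP replicate 1 is highest for mitotic genes (537 CPM) and KEP replicate 3 stands alone for neutrophil genes (117 CPM).

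Tregs from other tissues of KEP and WT mice were used to ask where the spleen change differs. KEP and WT Tregs of lymph node (tumor-draining in KEP), lung and blood, with 3 libraries per group, were tested in the same fit. There the called share was 1.12% in lymph node (0.663% higher, 0.452% lower), 19.9% in lung (9.61% higher, 10.3% lower) and 20.2% in blood (9.88% higher, 10.3% lower). Of the 423 genes higher in spleen, 55 were also called higher in lymph node (13% of the spleen genes, 64.7% of the lymph node genes). In lung there were 297 (70.2% of the spleen genes, 24.1% of the lung genes), and in blood 303 (71.6% and 23.9%). Of the 123 lower genes, 11 were also lower in lymph node (8.94% of the spleen genes, 19% of the lymph node genes), 98 in lung (79.7% and 7.44%) and 99 in blood (80.5% and 7.48%). No gene called in spleen was called in the opposite direction in another tissue. In all 4 tissues 42 genes were higher, among them Havcr2, Gzmb, Trp73, Lgmn, Cr1l, Il1rl1, Icos and Tigit, and 9 were lower, among them Trio, Ttc28 and Lmo4. Called in spleen and in none of the others were 69 higher genes, such as S100a4, Lgals3 and Ccr10, and 14 lower genes, such as Dnajc3. A call in spleen alone is not a difference between tissues. S100a4 had log2 fold changes of 0.65 in lung and 0.46 in blood. In the main edgeR fit its difference from the mean of the 3 other tissues was not called (adjusted p = 0.33), nor was that of Ccr10 (adjusted p = 0.483). In the edgeR fit with the title date as a fixed block, given below, both differences were called. They were 1.11 ± 0.18 for S100a4 and 1.33 ± 0.22 for Ccr10 (both adjusted p = 0.0117).

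Whether a spleen change differed from that in another tissue was tested as a difference of log2 fold changes. Against lymph node, 16 genes differed (0.125% of all tested), each with the larger value in spleen. Itgae differed by 1.61 ± 0.21 (adjusted p = 0.00159), with a log2 fold change of 2.08 in spleen and 0.46 in lymph node. WT Itgae levels were 97.8 ± 6.72 CPM (SD, n = 3) in spleen and 574 ± 84.5 CPM in lymph node, and KEP levels were 413 ± 40.8 and 791 ± 81.9 CPM. WT levels in lung and blood were 307 and 487 CPM, so WT spleen had the lowest mean of the 4 tissues. S100a6 differed by 1.27 ± 0.18 (adjusted p = 0.00159), with WT levels of 96.4 ± 3.84 CPM in spleen and 156 ± 31.7 CPM in lymph node. Il9r, the receptor for interleukin 9, differed by 1.38 ± 0.20 (adjusted p = 0.00159): it rose in spleen (1.17 ± 0.14) and had -0.22 in lymph node, which did not pass. Lgals3, the gene of galectin-3, differed by 1.82 ± 0.29 (adjusted p = 0.0155), with 1.19 in spleen and -0.63 in lymph node. Itgae and S100a6 also differed from the mean of the 3 other tissues, by 1.12 ± 0.17 and 0.93 ± 0.15 (both adjusted p = 0.0118), and these were the 2 genes called there (0.0156%). Left-out libraries ended several of these calls, as did the fit of all 31 libraries for every one of them. Against lymph node, Itgae, S100a6 and Il9r stayed called without any 1 spleen library, while Lgals3 lost its call without KEP replicate 3 or WT replicate 3 (adjusted p up to 0.0611). Against the mean, Itgae lost its call without 5 of the 6 libraries and S100a6 without 4 (adjusted p up to 0.135 for both).

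Against lung, 3 genes differed (0.0234%). Socs3 had a log2 fold change of 1.04 in spleen and -0.13 in lung, a difference of 1.17 ± 0.20 (adjusted p = 0.0353). Pim1 had 0.84 in spleen and 0.04 in lung, a difference of 0.81 ± 0.14 (adjusted p = 0.0353). Both genes belong to the cytokine response through STAT factors. WT levels of Socs3 were 205 ± 31.5 CPM in spleen and 362 ± 35.7 CPM in lung (SD, n = 3), and those of Pim1 were 374 ± 41 and 1720 ± 58.1 CPM. Klf2, a transcription factor of resting and recirculating T cells, differed by 0.99 ± 0.17 (adjusted p = 0.0353), with 0.10 in spleen and -0.89 in lung. Without 1 library at a time, Socs3 and Pim1 each lost this call 4 times and Klf2 3 times (adjusted p up to 0.243, 0.263 and 0.243). Against blood no gene was called in the main edgeR fit, while 1004 had an unadjusted p under 0.05. DESeq2 called 14, and edgeR with no filter on low counts called 24.

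Libraries of different tissues share title dates within a genotype, though what the date marks is not stated, and pairing by date changed the counts of differing genes. With the date as a fixed block in edgeR, 74 genes differed from lymph node, 38 from lung, 54 from blood and 35 from the mean of the 3, and all of the genes called without the block were among them. With the date as a random block in limma-voom the counts were 23, 7, 0 and 10, so the calls against blood were made by the fixed block and not by the random one. Against blood the fixed block called S100a6 (0.88 ± 0.15, adjusted p = 0.0161), Parp8 (0.77 ± 0.13, adjusted p = 0.0151, a smaller fall in spleen than in blood) and Il2ra (-0.59 ± 0.11, adjusted p = 0.0197). Il2ra, the CD25 gene, had thus a smaller KEP difference in spleen (0.34) than in blood (0.93). Il1rl1 was called against the mean of the other tissues in the blocked fit (0.68 ± 0.12, adjusted p = 0.0113) and not without the block (adjusted p = 0.618). The genes named from the blocked fit were chosen after their values were seen.

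**Figure D5:**
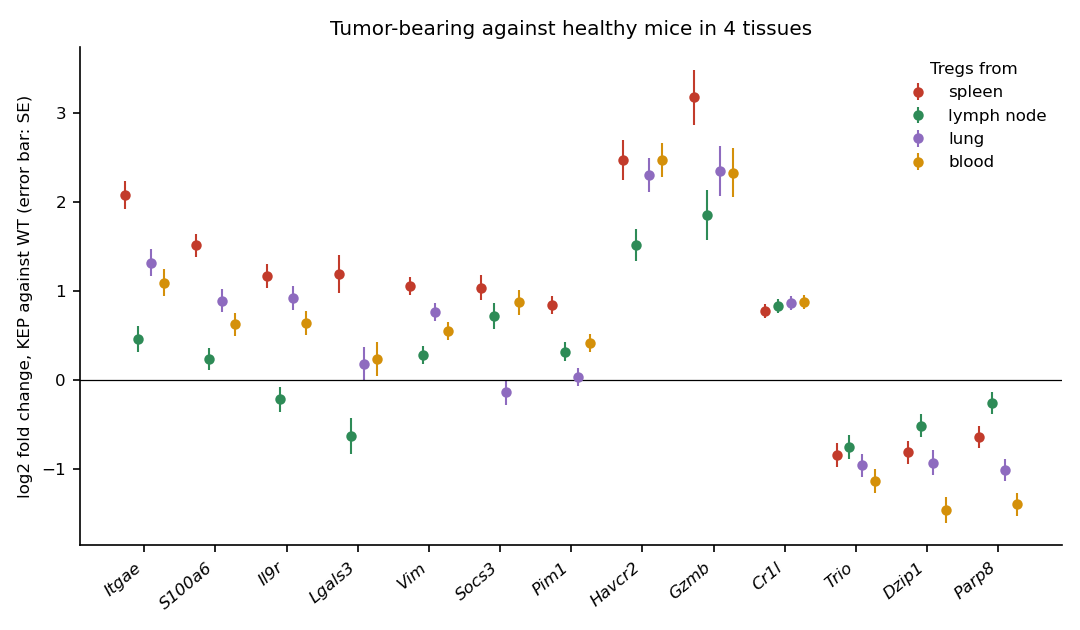
Log2 fold changes, KEP against WT, with SE (vertical axis) of 13 genes in Tregs from spleen, lymph node, lung and blood (colours). Itgae, S100a6, Il9r and Lgals3 separate spleen from lymph node, Socs3 and Pim1 separate spleen from lung, and Cr1l is level across all 4 tissues.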

How the data were processed

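The deposited file holds raw read counts per gene for 31 libraries (24594 Ensembl genes, mouse). TopHat2 2.1.0, TopHat, HTSeq and GRCm38 are named, with no order, per the submitters' processing notes. The annotation release and the strand setting of the counting were not given in the sources used here. Per the labels' protocols the libraries came from a stranded TruSeq mRNA kit and were read as 65-base single reads.

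Counts were fitted with edgeR 4.0.16 (R 4.3.3, limma 3.58.1): TMM factors, filterByExpr at a minimum count of 10 (12825 genes kept), 1 mean for each of 8 groups (spleen, lymph node, lung and blood of KEP and WT, 24 libraries, without tumor and mammary gland) and the robust quasi-likelihood F test. Adjusted p-values are Benjamini-Hochberg values from this test over all tested genes, and a gene is called under 0.05. CPM are counts divided by the TMM-scaled library size, log2 fold changes are given with their SE, and differences between tissues are contrasts in the same fit. The procedure was checked on simulated counts with known changes. Gene positions come from the deposited count file, exon overlaps from GENCODE M21 and promoter sequences from RefSeq (25 of the 30 leading genes matched).

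Genes were named by a rule: among called genes with at least 5 CPM in a group, a change of at least 1.5-fold and no overlap between the groups, the 15 higher and 15 lower with the smallest p (of 192 and 29 eligible), leaving out markers of other cells, receptor segments and unnamed genes; up to 4 called members of each of 34 lists, or the member with the smallest p; up to 4 genes each way called both in a contrast between tissues and in spleen; and, always, Cd3e, Cd4, Cd8a, Cdh1, Ctla4, Foxp3, Ikzf2, Il2ra and Trp53. Other names were chosen after their values were seen. Some genes that the rule names are not reported here. The members and lists were chosen with earlier results of these data known. The lists hold 550 symbols, of which 4 are not in the file and 505 were tested, with 43 called higher and 4 lower.

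The title dates pair libraries across tissues within a genotype. Deviations from the group means correlated over 0.1 between same-date libraries in 9 of 9 KEP pairs of spleen with another tissue (median 0.384) and in 7 of 9 WT pairs (median 0.112). Between KEP and WT no date is shared. The alternatives tried were RLE or upper-quartile scaling, no filter, a minimum count of 50, all 31 libraries, the 6 spleen libraries alone, DESeq2 1.42.0, limma-voom with and without a date block, glmTreat at 1.5-fold, an edgeR fit with a date block and leaving out each spleen library.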

Additional observations from a re-analysis of the deposited data

Results flagged for a closer look

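Differences between the KEP effect in spleen and in another tissue, each past the adjusted p of 0.05 in edgeR, were found for 16 genes against lymph node, 3 against lung and 2 against the mean of the other tissues. The leading ones are given here. Against lymph node they include Itgae (1.61 on the log2 scale), Il9r (1.38), S100a6 (1.27) and Lgals3 (1.82). For Itgae the spleen and lymph node effects were 2.08 and 0.46, and for Lgals3 they were 1.19 and -0.63. Against lung they were Socs3 (1.17), Pim1 (0.81) and Klf2 (0.99), and Klf2 was itself not called in spleen (0.10). Against the mean of lymph node, lung and blood they were Itgae (1.12) and S100a6 (0.93). With the title date as a fixed block in edgeR all of these differences stayed called, with blocked adjusted p-values from 2.41e-07 (Il9r) to 0.033 (Socs3). In the fit of all 31 libraries none of them was called. Without 1 spleen library at a time, Itgae, Il9r and S100a6 stayed called against lymph node, Lgals3 lost its call 2 times, Klf2 3 times, Socs3 and Pim1 4 times, and against the mean Itgae lost it 5 times and S100a6 4 times.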

How the results depend on the processing

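The total of 546 spleen calls (423 higher, 123 lower) stayed within 1.5 times under RLE factors (550), upper-quartile factors (553) and no filter (690). So it did with a minimum count of 50 (541), the spleen libraries alone (589), limma-voom (518) and DESeq2 (804). The lower genes alone did not stay within 1.5 times under DESeq2 (237) or the random date block. Similar totals did not mean the same genes. Of the 546, 414 were called with the spleen libraries alone, where 11714 genes were tested. Without WT replicate 3, which gave 537 calls, 392 of the 546 were called. The random date block, a replicate block in limma-voom, called 608, 185 of them lower. All 31 libraries gave 68 calls (66 higher, 2 lower) and glmTreat 53 (53 higher, 0 lower). Leaving out each library gave 243 to 537 calls, 220 to 392 higher and 23 to 161 lower. Each of the 546 genes that an alternative also called kept its sign there.

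Genes differing between tissues (lymph node, lung, blood and mean of the 3 in that order; 16, 3, 0 and 2) numbered 42, 28, 24 and 27 with no filter, 43, 11, 14 and 25 by DESeq2 and 0 in each with all 31 libraries. They numbered 74, 38, 54 and 35 with the date as a fixed replicate block, and 23, 7, 0 and 10 with the random block. For lung RLE gave 1 and a minimum count of 50 gave 0, and for lymph node limma-voom gave 9. Leaving out each spleen library gave 4 to 22, 0 to 7, 0 to 0 and 0 to 2.

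Of 1370 values of named genes under alternatives 1130 kept direction and side of the threshold, 216 lost the call, 20 gained it and 4 changed sign. Those 4 were Cdh1, at or below 1.28 CPM: 0.0225 by limma-voom, and above 0 without KEP replicate 2, KEP replicate 3 or WT replicate 3, in a range of -0.24 to 0.42 with each spleen library left out. No paired analysis of KEP against WT was possible because no title date holds both.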

Other observations

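The genes below were picked after their values were seen, so they stand for no tested group. Of 9 S100 calcium-binding protein genes tested, 5 were called higher, beside 3.3% over all genes: beside S100a4 and S100a6 these were S100a10 (0.66 ± 0.11, adjusted p = 0.000635), S100a11 (0.55 ± 0.10, adjusted p = 0.000866) and S100a13 (0.40 ± 0.10, adjusted p = 0.0145). S100a8 and S100a9, the neutrophil members, were not called. The S100a10 partner Anxa2, a membrane-binding annexin, read 75, 79.1 and 67.8 CPM in KEP and 28.2, 33.6 and 42.9 CPM in WT (1.08 ± 0.21, adjusted p = 0.00488), and 2 of 9 annexin genes were called higher. Of single genes with lysosomal products, whose number tested was not counted, these were called higher: Lamp2, a lysosomal membrane protein (0.99 ± 0.15, adjusted p = 0.000161), Gm2a, the GM2 ganglioside activator (0.70 ± 0.09, adjusted p = 9.51e-06), and Man2b1, the lysosomal alpha-mannosidase (0.40 ± 0.07, adjusted p = 0.000427).

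A few single genes with nucleolar products were called lower, and how many such genes were tested was not counted. Nat10, an RNA acetyltransferase, read 52.9, 58.6 and 54.5 CPM in KEP and 74.9, 77.9 and 72.1 CPM in WT (-0.44 ± 0.08, adjusted p = 0.00171). Utp20 (-0.46 ± 0.12, adjusted p = 0.0197) and Nol6 (-0.34 ± 0.09, adjusted p = 0.0198) fell as well. None of the 16 genes of the ribosome biogenesis list was called. Ltb, the gene of lymphotoxin beta, read 621, 611 and 670.2 CPM in KEP and 877, 930.5 and 825 CPM in WT (-0.47 ± 0.11, adjusted p = 0.0124).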
